A study of Mus musculus with 6 samples.

Results

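The mitochondrial ribosomal protein genes were taken as the protein-coding genes whose symbol starts with Mrpl or Mrps followed by a number, and their expression was examined in bone-marrow-derived macrophages (BMDMs) treated with excess salt. The symbol matched 77 genes, and 76 were kept, of 15903 genes tested. *Mrps6* was left out because its locus overlaps that of *Slc5a3*, a transporter of the osmolyte myo-inositol. BMDMs were grown from bone marrow with the growth factor M-CSF, and came from 3 *Cx3cr1* GFP mice on a C57BL/6J background, in which GFP sits in the *Cx3cr1* locus, so that all libraries carry this allele. Cells of each mouse were left unstimulated (control, n = 3) or received 62 mM excess NaCl for 24 h (NaCl, n = 3), and adherent cells were sequenced as polyadenylated RNA without strand information. The age of the mice is not given in the sources used here. The p-values measure the spread between the libraries of these 3 mice.

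Mitochondria keep their own ribosome, which translates the few proteins still encoded in mitochondrial DNA, all of them subunits of the respiratory chain and the ATP synthase. Its ribosomal RNAs are transcribed inside the organelle, whereas all of its proteins are encoded in the nucleus, made in the cytosol and imported. Some of these proteins descend from the bacterial ribosome, and others were gained by the mitochondrial ribosome and have no bacterial counterpart.

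Of the 76 genes, 50 encode proteins of the large subunit and 25 of the small subunit. By descent, 30 of the large and 15 of the small subunit proteins are counted with a bacterial counterpart, and 20 and 10 as specific to mitochondria. *Mrps18a* and *Mrps18b* are counted as specific, although they are paralogues of *Mrps18c*, which is counted with a bacterial counterpart. The remaining gene, *Mrps36*, carries the name of a small subunit protein, but its product is now assigned to the 2-oxoglutarate dehydrogenase complex. *Mrps30* and *Mrps18a* are counted with the large subunit, where their products sit. The large subunit gene *Mrpl53* was not among the genes tested. The members lie on 17 chromosomes, with 11 on chromosome 11 and 8 on chromosome 17, and none is encoded in mitochondrial DNA.

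The sequence around the start sites of these genes was examined first. Promoters, as windows of 300 bases from 250 before to 50 after each start, were taken from RefSeq (GRCm38.p6), where 67 of the 76 members were found with 73 windows. The letters of 3 motifs described for nuclear genes of mitochondrial proteins were searched on both strands: GCGCATGCG (NRF1), CCGGAAGT (ETS factors) and AAGATGGCG (YY1). None of these letter strings contains another. NRF1 letters were found in 9.59% of member windows, against 1.75% of 32851 mouse promoters and 3.54% of the 12874 promoters of protein-coding genes tested. ETS letters were found in 16.4%, against 3.89% and 7.93%. YY1 letters were found in 11% (8 windows), against 1.4% and 2.9%. Any of the 3 was found in 26 windows (35.6%), against 6.69% and 13.5%.

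Letters common to many promoters were also searched. The SP1 letters GGGCGG were found in 52.1% of member windows and in 61% of the promoters of genes tested, and the E-box letters CACGTG in 9.59% and 9.78%. The median GC content was 58.3% in member windows and 60.3% in those of genes tested, with a median of 21 and 20 CpG. In 6 member windows (8.22%), the YY1 letters lay on the strand of the gene just after the start, against 1.54% of promoters of genes tested. A match describes letters in the window and is not a bound site, and no test was run on these shares.

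The windows of *Mrpl42* (chr10:95501900-95502199, minus strand), *Mrps27* (chr13:99344536-99344835, plus strand) and *Mrpl32* (chr13:14612988-14613287, minus strand) are shown because they hold these motifs in different arrangements. Those of *Mrpl45* (chr11:97315466-97315765, plus strand) and *Mrpl34* (chr8:71464676-71464975, plus strand) are shown because these were the members with the highest and the lowest log2 fold change in the comparison that follows. Capitals mark the letters of the NRF1, ETS or YY1 motif on either strand, and all sequences run 5′ to 3′ on the strand of the gene.
Mrpl42: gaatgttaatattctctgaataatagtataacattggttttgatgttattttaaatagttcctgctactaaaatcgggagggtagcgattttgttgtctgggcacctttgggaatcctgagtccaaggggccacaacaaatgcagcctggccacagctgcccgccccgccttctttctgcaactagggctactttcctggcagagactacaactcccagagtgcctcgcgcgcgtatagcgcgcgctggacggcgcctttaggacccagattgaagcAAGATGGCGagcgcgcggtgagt
Mrps27: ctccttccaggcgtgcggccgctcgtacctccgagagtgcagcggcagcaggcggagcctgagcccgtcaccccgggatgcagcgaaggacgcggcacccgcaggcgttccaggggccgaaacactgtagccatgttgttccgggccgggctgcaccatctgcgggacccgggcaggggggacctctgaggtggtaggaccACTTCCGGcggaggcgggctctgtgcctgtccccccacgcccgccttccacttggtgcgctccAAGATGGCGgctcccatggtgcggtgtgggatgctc
Mrpl32: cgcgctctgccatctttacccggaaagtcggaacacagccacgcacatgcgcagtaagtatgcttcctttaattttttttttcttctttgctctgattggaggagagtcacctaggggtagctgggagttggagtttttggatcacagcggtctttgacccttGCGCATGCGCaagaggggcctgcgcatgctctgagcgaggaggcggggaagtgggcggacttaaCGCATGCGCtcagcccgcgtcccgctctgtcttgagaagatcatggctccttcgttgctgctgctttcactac
Mrpl45: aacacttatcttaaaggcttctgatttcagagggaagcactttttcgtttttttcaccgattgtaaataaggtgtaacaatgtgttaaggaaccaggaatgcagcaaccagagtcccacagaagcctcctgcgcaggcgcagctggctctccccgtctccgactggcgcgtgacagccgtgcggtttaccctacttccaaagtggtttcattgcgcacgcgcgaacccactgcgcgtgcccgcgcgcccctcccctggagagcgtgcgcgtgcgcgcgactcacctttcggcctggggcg
Mrpl34: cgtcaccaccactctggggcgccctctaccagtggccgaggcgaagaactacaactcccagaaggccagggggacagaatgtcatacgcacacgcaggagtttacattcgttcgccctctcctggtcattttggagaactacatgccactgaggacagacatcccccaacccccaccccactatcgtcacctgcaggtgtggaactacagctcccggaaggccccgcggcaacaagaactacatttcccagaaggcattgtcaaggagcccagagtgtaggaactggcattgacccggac

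In *Mrpl42*, YY1 letters began 27 bases after the start. In *Mrps27*, they began 14 bases after it, with ETS letters on the opposite strand upstream. In *Mrpl32*, NRF1 letters were found 3 times, among them a palindrome read on both strands. The windows of *Mrpl45* and *Mrpl34* held none of the 3 motifs, which says only that these letters are not in these 300 bases.

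Many members share their start region with a neighbour. In GENCODE M21, 33 of 76 members (43.4%) had a protein-coding gene on the other strand that starts within 1000 bases, against 2071 of 12649 protein-coding genes tested (16.4%). *Mrpl46* and *Mrps11*, one gene of each subunit, form such a pair with each other, and their starts lie 412 bases apart on chromosome 7.

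Reads were counted without strand, and under STAR's rule a read over several genes is counted for none of them, so overlaps bear on the members' counts. In all, 9 members shared over 20% of their exonic bases or of their 75-base windows with other genes. Shares are over all other genes together, and the gene named is that with the largest overlap or the most matches. The largest shares were those of *Mrps34* (77.8% of exonic bases, *Mapk8ip3*) and of *Mrps25* (69.8%, *Nr2c2*). *Mrpl19* shared 36.2% of its windows (*Gcfc2*). *Mrpl24* (with *Rrnad1*), *Mrpl43* (*Twnk*), *Mrpl47* (*Ndufb5*), *Mrps18b* (*Gm16279*), *Mrps18c* (*Gm43511*) and *Mrps27* (*6430562O15Rik*) shared between 23.2% and 33.4% of exonic bases. Values of these 9 genes are uncertain to that extent. Others resemble pseudogenes, which may bear on their counts: *Mrpl22* shared 17.3% of its windows (*Gm6997*), and *Mrps36* 11.3% (*Mrps36-ps2*).

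All members were detected in every library. The reads counted on genes numbered from 4088065 (NaCl replicate 3) to 20123570 (control replicate 3) per library, and the members took between 0.178% and 0.205% of them. The median member had 196.5, 289.5 and 539 counts in control replicates 1, 2 and 3, and 208, 288 and 100 counts in NaCl replicates 1, 2 and 3. The lowest count of any member was 25, for *Mrps36* in NaCl replicate 3. Macrophage identity was checked with 8 marker genes, of which *Lyz2*, *Cd68*, *Adgre1* and *Csf1r* had 1196 CPM or more in every library (CPM are edgeR counts per library size scaled by TMM). The mean levels of the 8 markers had a median of 914.9 CPM. Among these markers, *Cd14* and *Lyz2* were higher in NaCl, with log2 fold changes of 1.16 and 0.96. Of the 8, 4 had a log2 fold change above 0 and 4 below 0 (median 0.01). In edgeR, 2 of them were higher past the threshold without the block and 3 with it, and 0 were lower. Neutrophil markers summed to between 186 and 391 CPM in control and between 204 and 321 CPM in NaCl libraries, and the defining *Ly6g* was at 0.656 CPM or less. Of these 8 markers, 7 had a log2 fold change below 0 (median -0.36), 0 passed the threshold, and 1 was lower with the block (*Mpo*, adjusted p = 0.0245). Their part in the results that follow was not tested. None of 4 T and NK cell markers was among the genes tested. In such bulk libraries, fewer cells of a type and less RNA per cell cannot be told apart.

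Level per length differed widely between members. Mean CPM divided by the median length of the gene's coding transcripts in kilobases had a median of 19.6 over the 76 genes, with quartiles of 11.3 and 32.9. The highest was *Mrpl20* with 89.8 CPM per kb, and the lowest *Mrpl47* with 3.32, a 27.0-fold range. *Mrps21* (76.6 CPM per kb) and *Mrps23* (63.9) followed *Mrpl20*, and *Mrps25* (4.58) and *Mrpl1* (5.13) came next to the lowest. *Mrpl47* and *Mrps25* are among the 9 genes that overlap others. The ranking also depends on annotated length, 494 bases for *Mrpl20* and 6073 for *Mrps25*. Before division by length, *Mrps25* had a mean of 25.4 CPM in control and 30.2 CPM in NaCl, beside a median of 24.6 CPM over the members. The median was 22.1 CPM per kb for large and 16.6 for small subunit genes.

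*Mrpl20*, *Mrps21* and *Mrps23* kept the same order among themselves in each library, although ranges over libraries overlap. Other members stood above *Mrps23* in some libraries, such as *Mrpl4* in control replicate 2 (67.69 against 60.25 CPM per kb). *Mrpl20* ranged from 73.9 to 102 CPM per kb over the 6 libraries, *Mrps21* from 70.2 to 90.2 and *Mrps23* from 56.0 to 78.7, and in 6 of 6 libraries *Mrpl20* was above *Mrps21* and *Mrps21* above *Mrps23*. *Mrpl42*, the highest of the large subunit genes specific to mitochondria, ranged from 50.9 to 62.6. At the bottom, *Mrpl47* ranged from 2.48 to 4.13, *Mrps25* from 3.54 to 5.90 and *Mrpl1* from 4.15 to 5.70. *Mrpl47* was below *Mrps25* in 6 of 6 libraries, and *Mrps25* was below *Mrpl1* in all but NaCl replicate 2.

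Next, the effect of excess NaCl on the ribosome's proteins was assessed. No member passed the threshold in either direction in edgeR's quasi-likelihood test (adjusted p under 0.05 over 15903 genes), whereas 76 genes (0.478%) were higher and 28 (0.176%) lower among all genes. A count of 0 of 76 is close to these background shares and by itself shows nothing particular to the members, so the size of the changes is given beside it. The log2 fold changes of the members had a median of 0.01 and an SD of 0.17, against a median of -0.01 and an SD of 0.59 over all genes tested. They ran from -0.41 (*Mrpl34*) to 0.37 (*Mrpl45*), with 39 above and 37 below 0. A change of at least 0.5 on the log2 scale in either direction was reached by 0 of 76 members, and by 24.0% of all genes. The members were not matched with other genes for count, on which the spread of such estimates depends.

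With the mouse as a replicate block, again 0 members were higher and 0 lower, while 4.6% of all genes were higher and 4.3% lower. The unadjusted p was under 0.05 for 1 member without and for 5 members with the block, compared with 2010 and 3507 of all genes. DESeq2 likewise called 0 members, with and without the block, and had 2 and 1 members at an unadjusted p under 0.05. Of all 15903 genes, it called 452 higher and 354 lower with the block, and 245 and 155 without it. Its unadjusted p was under 0.05 for 2112 and 1692 of all genes, with and without the block. The lowest adjusted p of a member was 0.292 without and 0.0781 with the block, both for *Mrpl45*.

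The intervals show which changes these libraries leave possible. The 95% interval of the log2 fold change (unadjusted, one gene at a time) lay between -1 and 1 for 76 of 76 members, both without and with the block, which holds for 9548 and 10317 of all genes. It lay between -0.5 and 0.5 for 38 members without and for 55 with the block. The outermost bounds were -0.95 and 0.89 without the block, and -0.79 and 0.75 with it. Changes inside these bounds were not resolved at this depth and number of mice.

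**Figure D1:**
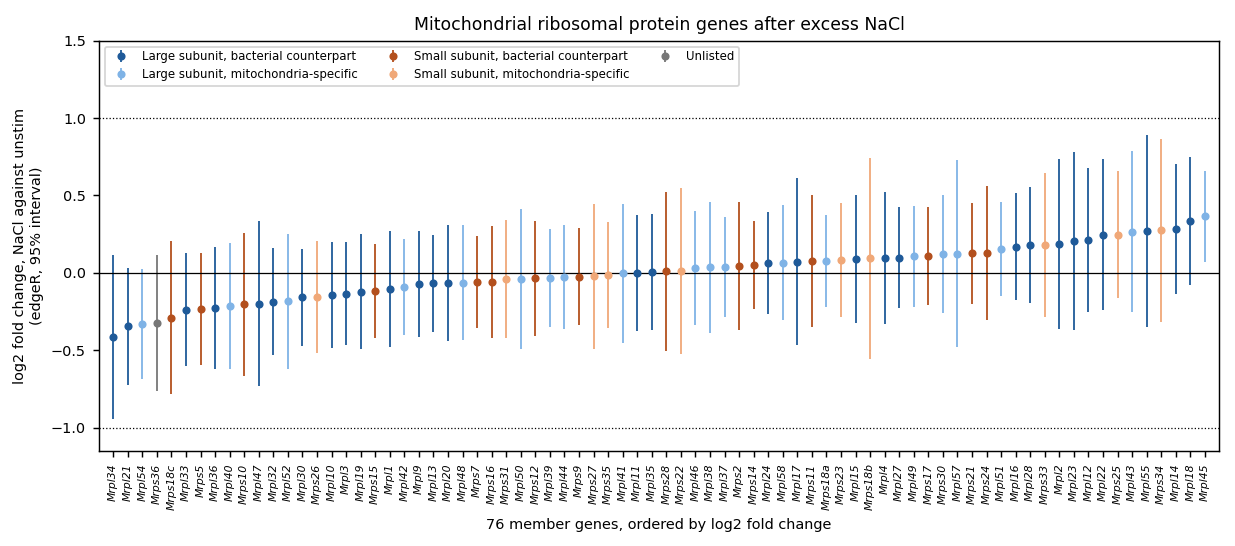
Log2 fold change of NaCl against control for the 76 mitochondrial ribosomal protein genes, ordered from the lowest to the highest. Points are edgeR estimates from 3 against 3 libraries, bars are unadjusted 95% intervals, colours give subunit and descent, and dotted lines stand at -1 and 1, which no bar reaches.

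The expression of the members was also summed in each library. The members together summed to 1722, 2040 and 2083 CPM in control replicates 1, 2 and 3, and to 1838, 2138 and 1920 CPM in NaCl replicates 1, 2 and 3. The NaCl values lie inside the range of the controls but for replicate 2, which was the highest of all. The means were 1948 ± 197 CPM and 1965 ± 155 CPM (SD, n = 3), a difference of 0.876%.

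Both subunits followed this pattern. The 50 large subunit genes summed to 1188, 1414 and 1440 CPM in control and to 1286, 1474 and 1332 CPM in NaCl libraries. The 25 small subunit genes summed to 526.6, 617.9 and 634.4 CPM in control and to 545.1, 657.0 and 582.6 CPM in NaCl libraries. In each, mouse 1 had the lowest value of its group, mice 1 and 2 had more in NaCl than in control, and mouse 3 had less. The median log2 fold change was 0.02 for large and 0.01 for small subunit genes.

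**Figure D2:**
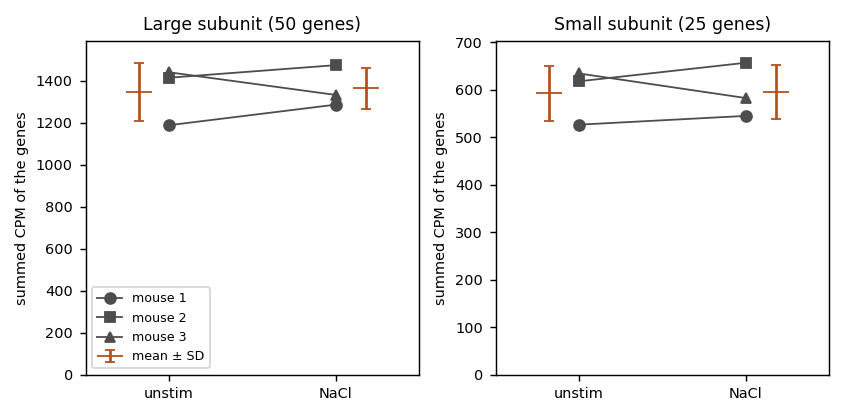
Summed CPM of the large and the small subunit genes in each library, with lines joining the control (unstim) and NaCl libraries of a mouse and the mean ± SD of 3 libraries beside them. The groups overlap in both panels, with means of 1347 and 1364 CPM for the large and 593 and 594.9 CPM for the small subunit.

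Genes with and without a bacterial counterpart were described separately. The median log2 fold change was 0.00 over 30 large subunit genes of bacterial descent (SD 0.20) and 0.03 over 20 mitochondria-specific ones (SD 0.16). In the small subunit it was -0.02 over 15 genes of bacterial descent (SD 0.13) and 0.05 over 10 mitochondria-specific ones (SD 0.14). No member of the 4 groups passed the test, with or without the block.

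Of the large subunit genes, *Mrpl45* had the highest log2 fold change. Its product, a mitochondria-specific protein near the tunnel exit, ties the ribosome to the inner membrane. Its expression was 27.7, 29.0 and 28.6 CPM in control replicates 1, 2 and 3, and 35.8, 35.3 and 39.3 CPM in NaCl replicates 1, 2 and 3. The 3 NaCl values lie above the 3 control values, and *Mrpl45* was the only member of which this holds (8.92% of all genes). The log2 fold change was 0.37 (SE 0.13, 95% interval 0.07 to 0.66) and missed the threshold (adjusted p = 0.292 in edgeR, and 0.0781 with the block). In the fit with the block, it passed without mouse 2 (adjusted p = 0.027) and with a correction for GC content and length (adjusted p = 0.0267).

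*Mrpl18* came second. It encodes a protein of bacterial descent, and its bacterial relative binds the small ribosomal RNA of the large subunit. Its expression was 22.4, 27.1 and 31.1 CPM in control and 27.5, 40.4 and 34.0 CPM in NaCl replicates 1, 2 and 3. Each mouse had more in NaCl, but the groups overlap, since the lowest NaCl value was below the highest control value. The change was 0.33 on the log2 scale (95% interval -0.08 to 0.75, adjusted p = 0.505 in edgeR, 0.124 with the block). With the block, it passed once GC content and length were corrected for (adjusted p = 0.0458).

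The lowest log2 fold changes of large subunit genes were those of *Mrpl34*, *Mrpl21* and *Mrpl54*. *Mrpl34*, of bacterial descent, had 22.3, 19.8 and 22.4 CPM in control and 21.5, 10.5 and 16.8 CPM in NaCl replicates 1, 2 and 3. The NaCl libraries of mice 2 and 3 lie below all controls, whereas mouse 1 hardly differed, with log2 ratios of -0.05, -0.90 and -0.42 for mice 1, 2 and 3. Its log2 fold change was -0.41 (95% interval -0.95 to 0.12, adjusted p = 0.519 in edgeR, and 0.0842 with the block), and -0.15 without NaCl replicate 2.

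*Mrpl54*, specific to mitochondria, had 25.6, 27.0 and 32.1 CPM in control and 24.4, 20.03 and 23.2 CPM in NaCl libraries. *Mrpl21*, of bacterial descent, had 17.5, 21.9 and 18.4 CPM in control and 15.0, 13.7 and 17.2 CPM in NaCl libraries. In both genes the 3 NaCl values lie below the 3 control values, which was also the case for *Mrps36* and for no other member, against 10.1% of all genes. The log2 fold changes were -0.33 for *Mrpl54* (adjusted p = 0.424 in edgeR) and -0.35 for *Mrpl21* (adjusted p = 0.438). *Mrps36* had 7.28, 8.61 and 8.27 CPM in control and 6.04, 7.16 and 5.99 CPM in NaCl libraries, with a log2 fold change of -0.32 (adjusted p = 0.549).

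Among small subunit genes, *Mrps18c* had the lowest and *Mrps34* the highest log2 fold change. *Mrps18c*, of bacterial descent, had 14.6, 12.4 and 13.97 CPM in control and 12.7, 7.89 and 13.4 CPM in NaCl libraries, where only mouse 2 stands clear of the controls. *Mrps34*, specific to mitochondria, had 5.23, 6.07 and 8.32 CPM in control and 6.93, 10.4 and 6.23 CPM in NaCl libraries, so that mice 1 and 2 had more and mouse 3 less in NaCl. The log2 fold changes were -0.29 (95% interval -0.78 to 0.21, adjusted p = 0.645 in edgeR) for *Mrps18c* and 0.27 (-0.32 to 0.87, adjusted p = 0.719) for *Mrps34*. Without NaCl replicate 2, these values were -0.0587 and 0.00398. Both are among the genes that overlap others.

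*Mrps24* and *Mrps26* ended the range of their groups. *Mrps24*, of bacterial descent, had 22.5, 26.2 and 24.9 CPM in control and 24.0, 34.5 and 21.1 CPM in NaCl libraries. Its log2 fold change of 0.13 (adjusted p = 0.839 in edgeR) rested on NaCl replicate 2, without which it was -0.11. *Mrps26*, specific to mitochondria, had 28.5, 34.6 and 35.1 CPM in control and 27.3, 34.4 and 26.1 CPM in NaCl libraries, with a log2 fold change of -0.16 (adjusted p = 0.738). The 3 paralogues *Mrps18a*, *Mrps18b* and *Mrps18c*, of which each ribosome holds a copy at separate sites, had log2 fold changes of 0.08, 0.09 and -0.29, none past the threshold.

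**Figure D3:**
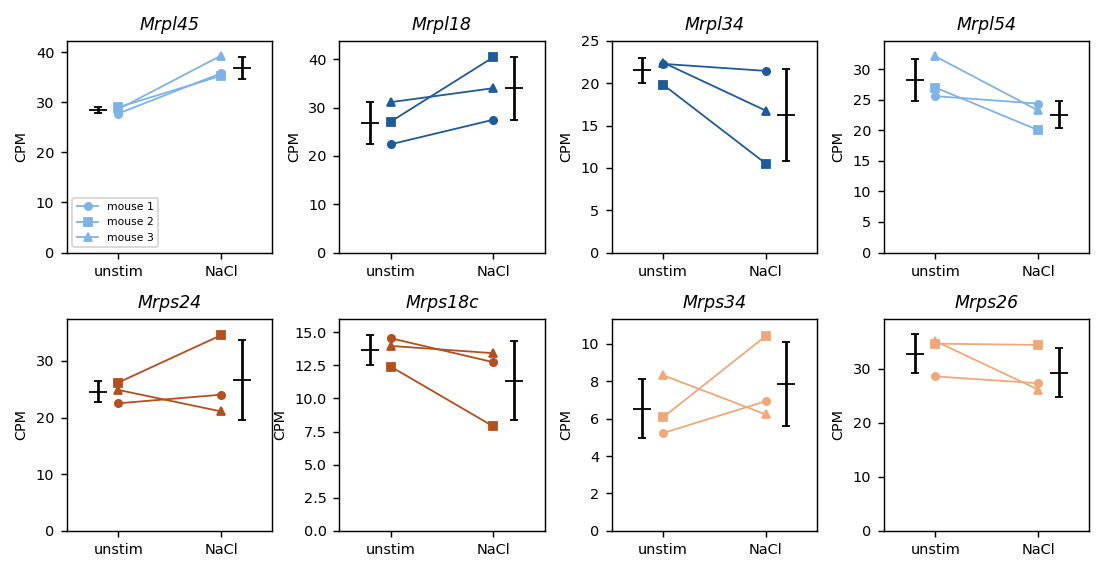
CPM of 8 members in each library, the highest and the lowest log2 fold change of each of the 4 groups by subunit and descent. Lines join the control and NaCl libraries of a mouse, and black bars show the mean ± SD of 3 libraries. Only *Mrpl45* and *Mrpl54* have groups that do not overlap.

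Members at named sites of the ribosome were then described. The stalk recruits the factors of translation and is built on the products of *Mrpl10*, *Mrpl11* and *Mrpl12*, and the last of these also binds the mitochondrial RNA polymerase. *Mrpl12* had 34, 52.6 and 58.1 CPM in control and 47.9, 66.4 and 53.7 CPM in NaCl libraries. Mice 1 and 2 had more in NaCl and mouse 3 less, and the change of 0.21 on the log2 scale missed the threshold (95% interval -0.25 to 0.68, adjusted p = 0.722 in edgeR). *Mrpl10* and *Mrpl11* had log2 fold changes of -0.14 and -0.00, with 3 of 3 mice in the same direction in neither.

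Around the exit of the peptide tunnel lie the products of *Mrpl17*, *Mrpl22*, *Mrpl23*, *Mrpl24*, *Mrpl45* and *Mrpl47*. Beside *Mrpl45* (0.37) and *Mrpl47* (-0.20), their log2 fold changes were 0.07 for *Mrpl17*, 0.25 for *Mrpl22*, 0.20 for *Mrpl23* and 0.06 for *Mrpl24*. *Mrpl22* had 8.64, 7.88 and 11.2 CPM in control and 10.6, 13.1 and 8.86 CPM in NaCl libraries, so that mouse 2 stood above all controls and mouse 3 had less in NaCl. *Mrps12*, part of the decoding centre, had 15.1, 17.1 and 16.4 CPM in control and 14.97, 18.2 and 13.9 CPM in NaCl libraries. *Mrpl58*, which releases peptides from stalled ribosomes as well as being part of the large subunit, had 14.4, 16.4 and 17.1 CPM in control and 16.1, 18.9 and 14.8 CPM in NaCl libraries. Both genes overlapped between the groups, with log2 fold changes of -0.04 and 0.06.

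The members were also compared within each mouse. The median log2 ratio of NaCl to control over the members was 0.09 in mouse 1, 0.03 in mouse 2 and -0.11 in mouse 3, and 51, 43 and 19 of the 76 members had more in NaCl. For the cytosolic ribosomal proteins, this was 48, 54 and 12 of 76 genes. Over all genes tested, it was 7583, 8114 and 7196 of 15903. Mouse 3 thus had the fewest genes above 0 in each set. Its NaCl library was also the shallowest, and the part of depth in these counts was not tested. The same direction in 3 of 3 mice was seen for 18 of 76 members (7 higher and 11 lower), against 43.5% of all genes tested.

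The spread of the ratios differed too. The members' ratios had an SD of 0.176 in mouse 1, 0.348 in mouse 2 and 0.212 in mouse 3, with a range from -0.90 to 0.76 in mouse 2. Of the control libraries, replicate 1 had the lowest value for 66 of 76 members (40.7% of all genes). Of the NaCl libraries, replicate 2 had the highest value for 45 of 76 (36.1% of all genes).

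**Figure D4:**
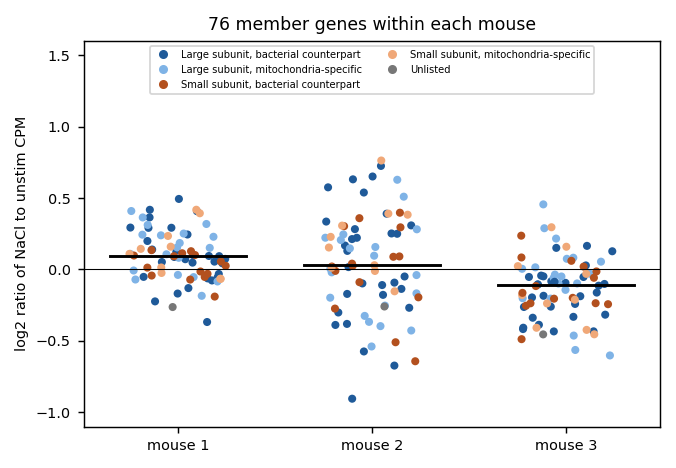
Log2 ratio of NaCl to control CPM of the 76 members within each mouse, each point a gene coloured by subunit and descent, with a line at the median (0.09, 0.03 and -0.11). The points spread most widely in mouse 2, and most lie below 0 in mouse 3.

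Genes around mitochondrial translation, from transcription to protein import and with the genes of mitochondrial DNA, were examined in lists. These held 107 genes, of which 100 were tested. None passed the threshold in edgeR, without or with the block. Of all genes tested, 0.478% were higher and 0.176% lower without the block, and 4.6% and 4.3% with it. A count of 0 is close to the shares without the block, and below those with it. An unadjusted p under 0.05 was seen for 4 and 15, compared with 2010 and 3507 of all 15903 genes. DESeq2 also called 0, and had 2 and 5 genes at an unadjusted p under 0.05, without and with the block. Of all genes, it called 245 higher and 155 lower without the block, and 452 and 354 with it, with 1692 and 2112 at an unadjusted p under 0.05. The median log2 fold change was 0.02 over 5 ribosomal proteins under other names, 0.07 over 27 assembly factors, 0.02 over 15 translation factors and -0.04 over 14 genes of mitochondrial transcription and RNA stability. It was -0.10 over 13 genes of protein import and chaperones. Among the first, *Dap3*, a GTP-binding protein of the small subunit, had 35.2, 47.6 and 40.7 CPM in control and 39.8, 44.0 and 41.7 CPM in NaCl libraries, a log2 fold change of 0.02.

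The 17 mitochondrial aminoacyl-tRNA synthetases, which charge tRNAs inside the organelle, had the highest median of these lists (0.21), with 12 of 17 above 0 and none past the threshold. *Lars2*, the leucine enzyme, had the highest log2 fold change (0.66, adjusted p = 0.667 in edgeR). Its values varied widely within both groups, with 212, 98.7 and 84.0 CPM in control and 176, 379 and 63.0 CPM in NaCl libraries. *Aars2*, the alanine enzyme, followed with 7.39, 11.8 and 11.3 CPM in control and 13.7, 18.2 and 10.8 CPM in NaCl libraries (log2 fold change 0.50, adjusted p = 0.435).

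The partners of these proteins from mitochondrial DNA did not pass the test either. *mt-Rnr1*, the ribosomal RNA of the small subunit, had 113, 69.0 and 98.5 CPM in control and 94.0, 59.1 and 68.5 CPM in NaCl libraries, so each mouse had less in NaCl while the groups overlap. The difference of -0.34 on the log2 scale missed the threshold (adjusted p = 0.571 in edgeR, 0.0824 with the block), and was -0.16 after the correction for GC content and length. *mt-Rnr2*, that of the large subunit, had 396, 334 and 457 CPM in control and 435, 255 and 496 CPM in NaCl libraries, with mice 1 and 3 higher and mouse 2 lower in NaCl. These RNAs carry short tails, and selection by poly(A) recovers them in part. Of 13 proteins encoded in mitochondrial DNA, 7 were tested, and their log2 fold changes had a median of -0.05, from -0.39 for *mt-Nd6* to 0.11 for *mt-Nd1*.

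Ribosomal proteins of the cytosol were set beside those of mitochondria. Of 76 cytosolic genes tested, 0 passed the threshold without the block and 1 with it, and their log2 fold changes had a median of 0.05 and an SD of 0.25. Among all genes, 0.478% were higher and 0.176% lower without the block, and 4.6% and 4.3% with it. The gene called with the block was *Rpl13a*, with 12.2, 13.8 and 17.8 CPM in control and 21.5, 31.9 and 17.97 CPM in NaCl libraries. Its difference was 0.71 on the log2 scale (adjusted p = 0.251 in edgeR, and 0.00972 with the block). DESeq2 called 0 of the cytosolic genes in both fits. *Rpl13a* has processed pseudogenes, which may bear on its counts.

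**Figure D5:**
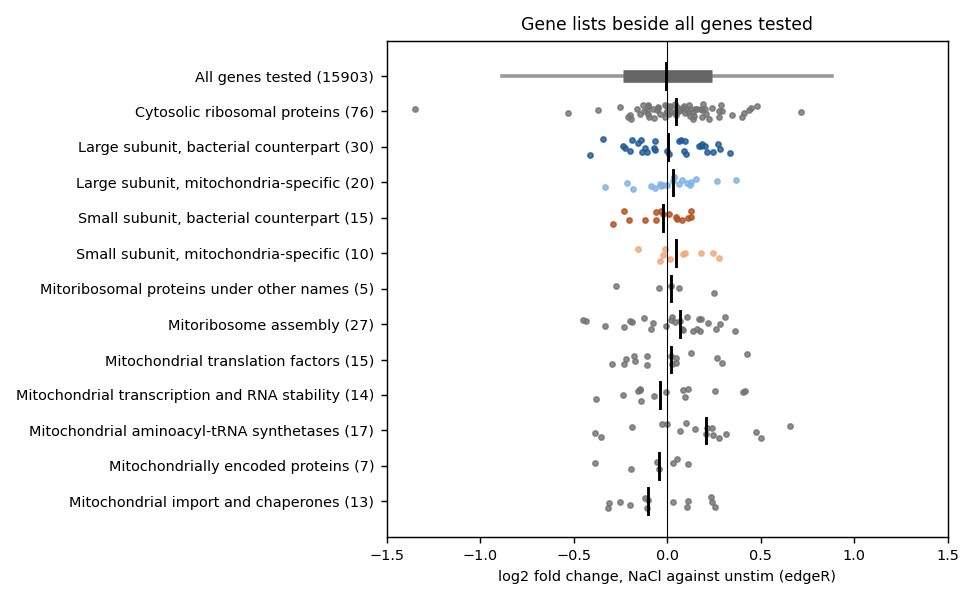
Log2 fold changes of NaCl against control for the members by subunit and descent, other mitochondrial lists and the cytosolic ribosomal proteins. Each point is a gene and each black line a median. For all genes tested, the thick bar spans the quartiles (-0.24 to 0.24) and the thin bar the range from -0.89 to 0.88 that leaves 5% of genes on either side.

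Finally, genes that share a start region with a member were examined. Of the 32 such neighbours tested, which include *Mrpl46* and *Mrps11* as each other's partner, 1 was higher and 0 were lower. Among all genes, 0.478% were higher and 0.176% lower. With the block, 3 neighbours were higher and 1 was lower, compared with 4.6% and 4.3% of all genes. The gene called in both fits was *Ncapd2*, a condensin subunit, whose start lies 100 bases from that of *Mrpl51* on chromosome 6. *Ncapd2* had 129, 107 and 117 CPM in control and 187, 222 and 194 CPM in NaCl libraries (log2 fold change 0.77, adjusted p = 0.0414 in edgeR). *Mrpl51* had 30.5, 31.2 and 35.1 CPM in control and 33.9, 37.1 and 37.1 CPM in NaCl libraries (0.16, adjusted p = 0.686). The difference between the partners' changes was not tested.

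With the block, *Gga3*, next to *Mrps7*, and *Eme1*, next to *Mrpl27*, were also higher, with log2 fold changes of 0.56 and 0.64. *Mrps7* and *Mrpl27* had log2 fold changes of -0.06 and 0.10 in the fit without the block. *Ndufb5*, which overlaps *Mrpl47* and is a subunit of respiratory complex I, was lower with the block (-0.44), and *Mrpl47* had a log2 fold change of -0.20. The pair of members, *Mrpl46* and *Mrps11*, had 0.03 and 0.08.

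*Mrps6*, which the rule left out, was the only gene with such a symbol that passed the threshold. It had 6.60, 6.88 and 7.16 CPM in control and 22.9, 35.99 and 33.8 CPM in NaCl libraries, with a log2 fold change of 2.16 (SE 0.20, adjusted p = 0.00236 in edgeR). In GENCODE M21, 19.9% of its exonic bases on chromosome 16 lie in *Gm49711* on the same strand. Reads over shared bases are counted for none of these genes, and what part of the value comes from transcripts of the overlapping genes was not tested.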

How the data were processed

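RNA was measured in BMDMs of 3 mice, each as a control and a NaCl library (6 libraries, 62 mM, 24 h). Per the methods and the submitters' processing notes, the authors trimmed 75-base single-end reads with fastp 0.20.0, aligned them with STAR 2.7.10b, and deposited a table of raw counts and a table of normalized signal, in which the counts are divided by DESeq2 1.40.2 size factors. The methods name mm10 with GENCODE vM32, an annotation of another build, so members are placed by chromosome. Gene symbols and types came from the deposited signal table and counts were joined by gene identifier.

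Genes whose counts summed to 10 or more (15903 of 57010, all in the deposited signal table) were tested with edgeR 4.0.16 (TMM, glmQLFit, glmQLFTest), with Benjamini-Hochberg adjustment over all of them and a threshold of 0.05. The methods name no term beside treatment. CPM use TMM-scaled library sizes. Log2 ratios within a mouse are differences of log2 CPM with a small prior count added, so they differ slightly from ratios of the CPM given. Total counts per library ranged from 4088065 to 20123570, and intervals of fold changes are from the edgeR fit. Both groups carry the replicate numbers 1, 2 and 3 in the labels, which are read here as the numbers of the mice. After removing group means, log2 CPM of the libraries of mice 1, 2 and 3 correlated with 0.426, 0.151 and 0.217, and those of different mice with -0.35 to 0.124. The libraries were paired by this number, and a second edgeR fit had the mouse as a block. These correlations cannot show that the shared factor is the mouse. Removing group means lowers the values between different numbers when those within a number are high. Total counts were also alike within replicate 1 (8520433 and 8635499) and replicate 2 (11315918 and 11610020).

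Alternatives were DESeq2 1.42.0, the replicate block, other scalings and filters, limma-voom (limma 3.58.1), thinning to the smallest library, a loess correction for GC content and length, leaving out members that overlap other genes, and leaving out libraries or mice. Lengths, overlaps and neighbours came from GENCODE M21, where 15486 of 15903 genes (97.4%) and 76 of 76 members were found by identifier. Levels per kilobase use the median length of a gene's protein-coding transcripts there. The scripts were tested on simulated data. The members and the lists were chosen with earlier results of these data known. Named by rule were the highest level and the highest and lowest fold change of each group by subunit and descent, the 3 highest and 3 lowest levels, genes overlapping others by over 20%, list genes past the threshold, both mitochondrial ribosomal RNAs and *Mrps6*. *Mrpl21*, *Mrps36*, *Mrps18a*, *Dap3*, *Lars2*, *Aars2*, *mt-Nd6*, *mt-Nd1*, *Mrpl32*, the genes of the stalk, tunnel exit, decoding centre and peptide release, the markers, and the neighbours with their member partners were named after their values were seen. R 4.3.3 and Python 3.11.15 (pandas 2.3.3, numpy 2.4.6, matplotlib 3.10.9) were used.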

Additional observations from a re-analysis of the deposited data

How the results depend on the processing

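In all alternatives run, 0 members were lower past the threshold. The count of members higher stayed at 0 except with the replicate block without mouse 2, where it was 1 (*Mrpl45*, log2 fold change 0.42, adjusted p = 0.027 in edgeR), and with the GC content and length correction in the same block, where it was 2 (*Mrpl45*, 0.37, adjusted p = 0.0267, and *Mrpl18*, 0.34, adjusted p = 0.0458). Over its alternatives, the log2 fold change of *Mrpl45* ran from 0.25 to 0.42 and that of *Mrpl18* from 0.184 to 0.475. Among the other mitochondrial lists and cytosolic ribosomal proteins, 0 were called, and 1 (*Rpl13a*) with the block. *Mrps24* turned to -0.0516 with the block without mouse 2, and ran from -0.108 (without NaCl replicate 2) to 0.258 when a library was left out. Without a library, *Mrps34* ran from 0.00398 to 0.511, *Mrps18c* from -0.413 to -0.0587, *Mrpl34* from -0.703 to -0.149 and *Mrps26* from -0.289 to -0.0873. *mt-Rnr1* passed the threshold with the block without mouse 2 (-0.377), ran from -0.553 to -0.178 without a library, and was -0.164 with the GC content and length correction and -0.15 with the block added. The cause of these changes was not tested. The median over the members lay between -0.07 and 0.09, on both sides of 0, and was 0.01 without members that overlap others. Over all genes tested, the counts moved more: 76 higher and 28 lower became 732 and 684 with the block, 1178 and 1034 with the block and that correction, and 245 and 155 in DESeq2. When a library was left out, they fell to 8 higher at the lowest (control replicate 2) and to 0 lower (NaCl replicate 2 or 3), and only leaving out NaCl replicate 1 raised both, with 46 lower. With 3 mice and 100 counts for the median member in the shallowest library, changes inside the intervals given could not be resolved.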
